A study of Mus musculus with 55 samples.

Results

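The 89 genes described here were nearly silent in control growing mouse oocytes. They were present at a moderate level in growing oocytes labelled Dhx36_sko, after the gene of the helicase DHX36. They were chosen from these measurements among the 33924 genes of the count table, of which they are 0.262%. A gene was taken if its mean over the 3 control libraries was under 1 CPM (counts of the gene per 1000000 counts of the library) and if it reached at least 5 CPM in each of the 3 Dhx36_sko libraries. Of the 92 genes that met both limits, Obox3, Mt1 and Fshr were left out by name, since Obox, histone, metallothionein 1 and 2, Fshr and mitochondrial genes were not taken. An informative symbol is carried by 67 members, and the other 22 are predicted genes or clones without a named function. 

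The series holds 55 samples, of which 26 are RNA sequencing libraries of oocytes from mouse ovary, made from polyadenylated RNA. The growing oocytes came from 3 Dhx36_sko libraries, of the genotype Dhx36fl/fl;SKO, and 3 control libraries. A second experiment used the groups rhau_sko and rhau_sko_DRB (RHAU is another name of DHX36) and the groups c and c_DRB, with 2 libraries each. Germinal vesicle oocytes, the fully grown stage before meiosis resumes, were held with cPDS for 12 h (GV_cPDS_12h) or were their controls (GV_C). Further 3 h libraries were labelled Trim21 or control within a Dhx36 experiment, with 3 libraries in each of these groups. The labels do not expand SKO, do not name the promoter of its Cre and give no age or strain. The controls of the growing oocytes are not described beyond the word control, and the letter c of the second experiment is not expanded. Nothing says whether libraries of a group came from separate animals, so p-values below measure the spread between libraries, which may be technical. DRB blocks transcription elongation by RNA polymerase II, cPDS (carboxypyridostatin) binds RNA G-quadruplexes, and TRIM21 is a ubiquitin ligase used to degrade antibody-bound proteins.

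DHX36 is a helicase of the DEAH-box family that unwinds G-quadruplexes, the stacked folds of guanine-rich RNA and DNA. A growing oocyte transcribes and stores large amounts of maternal RNA, and then falls silent before it is ovulated. Genes that serve other tissues, such as keratins, immune receptors or neuronal receptors, are normally kept off or at trace levels in this cell. A change of a few reads in such a gene is therefore a large relative change.

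Totals were 31930695 to 41075545 counts in the growing libraries, 26509060 to 65444652 in the germinal vesicle libraries and 7452742 to 32704737 in the Trim21 experiment. In the second experiment 6 libraries held 23010562 to 40968105 counts, and rhau_sko replicate 6 and c_DRB replicate 4 held 127927 and 129192. These shallow libraries were left out of the tests below; rhau_sko replicate 6 also went against its label, with Dhx36 at 46.9 CPM from 6 counts. Dhx36 itself was at 3.02, 2.05 and 1.87 CPM in Dhx36_sko growing oocytes, against 6.45, 7.58 and 10.8 CPM in control growing oocytes. In the second experiment it was at 7.63, 4.43 and 5.68 CPM in the deep sko libraries, against 46.9, 42.2 and 39.2 CPM in the deep c libraries. Values of the second experiment are given in the order rhau_sko 5, rhau_sko_DRB 7 and rhau_sko_DRB 8, and c 1, c 2 and c_DRB 3. All 10 oocyte markers (zona pellucida genes, Gdf9, Bmp15 and others) were detected in each of these groups. In growing oocytes they summed to 29090.1 to 34533 CPM in Dhx36_sko libraries, against 29156 to 31104 CPM in control libraries. Their sum in the second experiment was 7558 to 9568 CPM in deep sko libraries, against 12498 to 14132 CPM in deep c libraries, and 7 of the 10 were lower at an edgeR adjusted p under 0.05. The part of this shift in the members' levels was not tested.

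The members were far from abundant after they appeared. Over the growing oocytes their summed level was 952, 928 and 989 CPM in the Dhx36_sko libraries, against 42.2, 51.6 and 41.5 CPM in control libraries, so even in sko they made up at most 0.0989% of a library. The median member had a mean of 8.50 CPM in Dhx36_sko libraries and 0.530 CPM in control libraries. A Dhx36_sko mean under 10 CPM was found for 58 members, 27 lay between 10 and 20 CPM and 4 (Krt71, Ndufa4l2 and Ebf1 among them) were above 20 CPM. All of these growing values were used to choose the genes and are given as a description without a test. The ratio of the groups, from counts pooled over the libraries of a group and divided by their pooled totals, had a median of 19.3 and a minimum of 6.23. Trim29, without a control count, has no such ratio and was left out of it. Replicates were close, with a median coefficient of variation of 14.1% over the 3 Dhx36_sko libraries and a maximum of 36.1% for Itgb6.

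Trim29, a tripartite motif protein of squamous epithelia, had no read in any control library, and its mean of 8.72 CPM in Dhx36_sko libraries was at least 305-fold higher than 3 counts over the control group would give. Another 4 genes had 1 to 3 control counts in all, so their ratios are wide. Fermt3 had 1797 counts in Dhx36_sko libraries and 1 in control libraries, a ratio with an exact 95% counting interval of 316 to 69770. For Rbp2, with 1149 counts against 2, that interval was 156 to 4666. Near the control limit the last genes inside were Peli2, Gnl3l and Krt71, with control means of 0.998, 0.986 and 0.943 CPM. The first outside were Il18r1, Fbln5 and Shox2, at 1.03, 1.04 and 1.05 CPM. Near the sko limit Camk1, Usp17l5 and Kcnj15 were inside with a lowest Dhx36_sko library of 5.00, 5.05 and 5.05 CPM, and Map2k5, Slamf7 and H47 outside with 4.97, 4.96 and 4.96 CPM. The members thus have close neighbours on the other side of both limits. With the groups exchanged, the same limits found 6 genes: Gca, Snph, Ece1, Dpysl5, Tuba3b and Xlr5c.

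**Figure D1:**
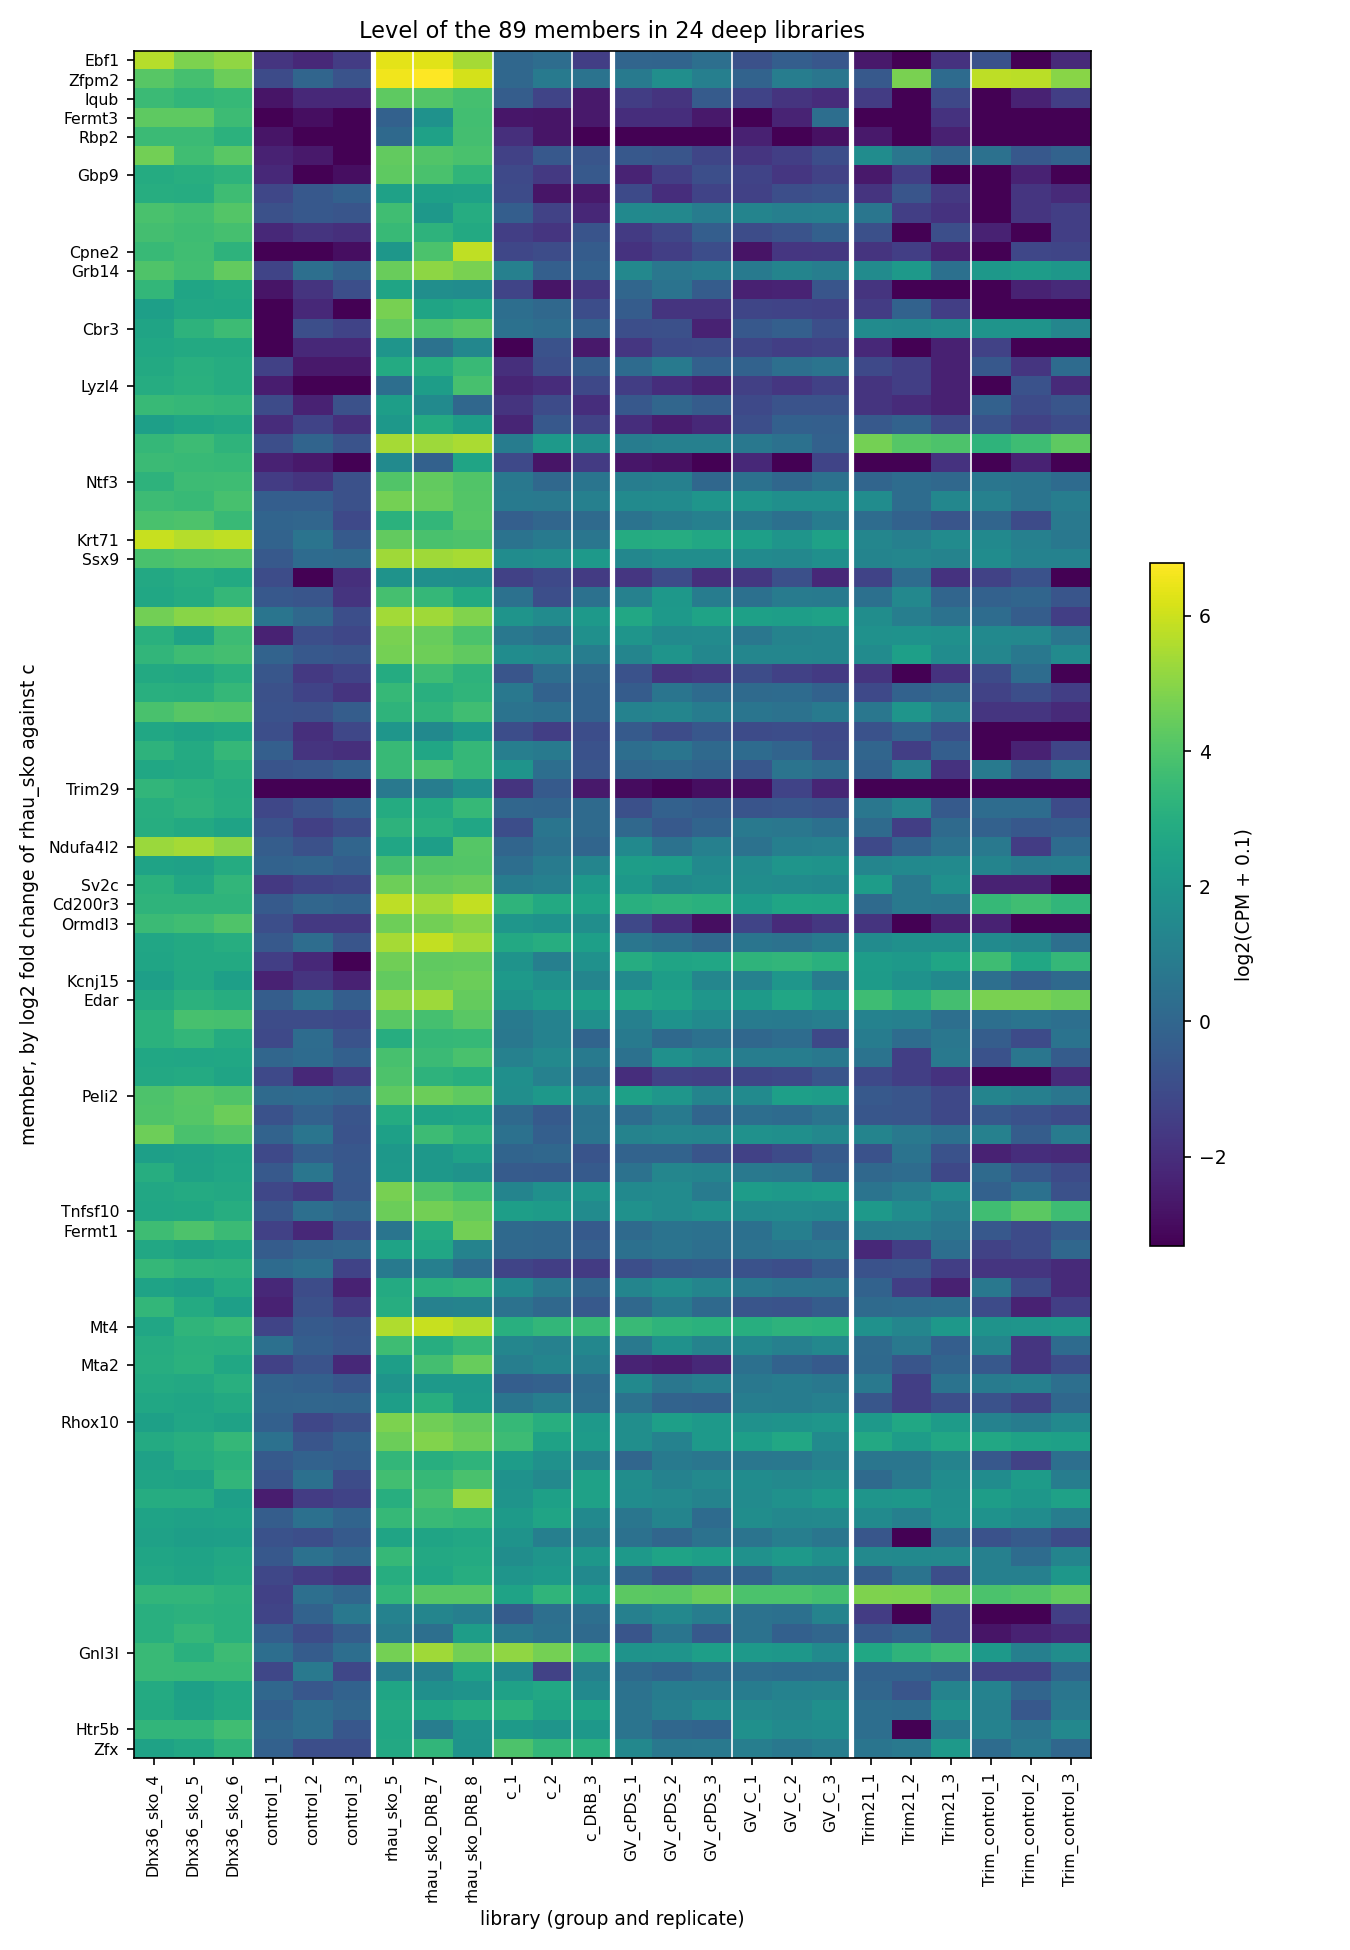
Level of each of the 89 members (rows, in order of their fold change in the second experiment) in each deep library (columns, Dhx36-deficient, cPDS or Trim21 libraries left of their controls), as log2(CPM + 0.1), with names beside members described in the text. The 3 Dhx36_sko and the 3 deep rhau_sko libraries are bright over most rows, while the control libraries, GV_C, GV_cPDS_12h and both Trim groups are darker, with single bright rows such as Zfpm2 in the Trim control libraries.

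The promoters of 61 members were found in RefSeq (build GRCm38.p6, 250 bases before to 50 bases after the annotated start). Krt71 and Mt4 are shown because they are skin genes among the 4 highest members per length in sko oocytes and because both carry TATAAA, in capitals, just before the start. That motif begins 40 bases before the start of Krt71 (chr15:101743048-101743347, minus strand) and 30 bases before that of Mt4 (chr8:94136954-94137253, plus strand).
Krt71 promoter: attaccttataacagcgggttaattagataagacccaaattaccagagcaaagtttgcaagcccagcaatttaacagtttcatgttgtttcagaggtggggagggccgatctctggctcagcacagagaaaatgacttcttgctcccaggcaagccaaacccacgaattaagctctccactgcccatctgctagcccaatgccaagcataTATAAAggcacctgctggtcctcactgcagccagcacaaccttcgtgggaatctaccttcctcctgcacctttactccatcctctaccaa
Mt4 promoter: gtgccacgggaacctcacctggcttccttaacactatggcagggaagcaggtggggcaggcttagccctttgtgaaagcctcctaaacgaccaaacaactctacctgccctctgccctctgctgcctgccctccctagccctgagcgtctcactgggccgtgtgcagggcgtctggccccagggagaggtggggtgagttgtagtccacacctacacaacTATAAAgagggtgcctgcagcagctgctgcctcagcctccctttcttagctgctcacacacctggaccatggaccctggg
Grb14 (chr2:65022717-65023016, minus strand) and Ntf3 (chr6:126166695-126166994, minus strand) are shown because DHX36 acts on G-quadruplexes and both hold a quadruplex pattern, in capitals. The pattern searched was 4 runs of 3 or more G with loops of 1 to 7 bases, on either strand. In Grb14 it lies on the strand opposite to the gene and is therefore printed as runs of C.
Grb14 promoter: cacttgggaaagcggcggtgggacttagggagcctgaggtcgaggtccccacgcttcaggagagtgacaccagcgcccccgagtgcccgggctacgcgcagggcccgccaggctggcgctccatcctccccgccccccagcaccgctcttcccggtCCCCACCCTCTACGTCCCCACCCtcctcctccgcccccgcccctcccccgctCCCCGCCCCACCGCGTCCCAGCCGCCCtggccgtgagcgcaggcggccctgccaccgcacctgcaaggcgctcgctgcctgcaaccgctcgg
Ntf3 promoter: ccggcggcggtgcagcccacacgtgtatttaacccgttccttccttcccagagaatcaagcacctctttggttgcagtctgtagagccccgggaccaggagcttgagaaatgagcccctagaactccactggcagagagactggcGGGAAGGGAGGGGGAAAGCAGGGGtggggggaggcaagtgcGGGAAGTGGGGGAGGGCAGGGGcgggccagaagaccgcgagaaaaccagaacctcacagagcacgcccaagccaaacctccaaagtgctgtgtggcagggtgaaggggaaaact
Such a pattern was in 9 of the 61 member promoters (14.8%), against 18.1% of 27025 promoters of all genes and 24.5% of 11538 promoters of genes measured well enough to be tested in germinal vesicle oocytes. The 9 were Grb14, Ntf3, Cpne2, Irf2bp2, Pdlim4, Sv2c, Peli2, Kcnj15 and Rhox10. TATAAA, on either strand, was in 10 of 61 (16.4%), against 14.2% of all promoters and 8.43% of the germinal vesicle ones. The other motifs searched, on both strands, were CACGTG (6.56% of members against 7.24% of all), the NOBOX-type letters TAATTG or TAATTA (14.8% against 12.6%), the EBF-type letters CCCNNGGG (14.8% against 13.4%) and the metal response letters TGCACNC or TGCGCNC (23.0% against 25.6%). Member promoters held a median of 6 CpG, against 7 over all promoters and 19 over the germinal vesicle ones. These shares are counts of letters in a short window, without a test, and the member shares lay within a few percentage points of those of all promoters.

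In the second experiment, whose libraries did not choose the members, most of the genes were again higher in the sko libraries. The deep sko libraries (1 without and 2 with DRB) were set against the deep c libraries (2 without and 1 with DRB), with DRB as a term in the model. Of the 89 members, 81 were higher and 0 lower at an edgeR adjusted p under 0.05, beside 19.9% higher and 17.9% lower among the 15923 genes tested. The 8 members not called were Htr5b, Camk1g, Mdn1, Gm11514, Gabpa, H2-Q2, Zfx and Gnl3l. At an unadjusted p under 0.05, 82 members were higher and 0 lower, beside 47.1% of all genes in either direction. DESeq2 called 80 higher and 0 lower. Without c_DRB replicate 3, 75 were higher, and without rhau_sko_DRB replicate 7, 1 (Zfx) was lower. The median log2 fold change of the members was 2.94 (quartiles 2.36 and 3.72), against −0.01 over all genes tested, and 71 members were called with at least a 4-fold increase. For 82 members each deep sko library was above each deep c library, and for 0 members below; over all genes tested these shares were 24.4% and 24.9%.

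All 89 members passed the filter on low counts in this comparison, but 18 of them did so through the sko libraries, since they had fewer than 10 counts in at least one c library. All 18 of these were called higher, Rbp2, Fermt3, Iqub, Ebf1, Gbp9 and Lyzl4 among them. Genes that enter a test through the group where they are high add no support. The counts, medians and p-values given below for role classes and single genes include these 18. Each class count stands beside the 19.9% of all genes tested that were higher. Of the other 71 members, 63 were higher and 0 lower, with a median log2 fold change of 2.81. A second background is given by all other genes with a mean under 1 CPM in control growing oocytes, with Obox3, Mt1 and Fshr included. They were not matched to the members by level. Of these 23186 genes, 5212 could be tested, and of those 1079 (20.7%) were higher and 361 (6.93%) lower in sko libraries, with a median log2 fold change of 0.28. Called higher genes were thus 4.65% of all the silent genes that are no members.

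The levels differed between the experiments. The summed level of the members was 1372, 1383 and 1369 CPM in the deep sko libraries, against 248, 223 and 185 CPM in the deep c libraries. Of the 89 members, 83 had a higher mean in deep c libraries than in growing control libraries, and in deep c libraries only 34 were still under 1 CPM while 9 reached 5 CPM. Only 14 members met both limits of the rule in the deep libraries of the second experiment. In the deep sko libraries 71 members had a mean of at least 5 CPM and 60 had at least 5 CPM in each of the 3, with a median of 10.5 CPM, against a median of 1.35 CPM in deep c libraries. Whether the oocytes of the 2 experiments were of the same stage is not given, since the same collection text stands for every RNA library. The order of the members by level differed too, with a Spearman correlation across the 89 genes of 0.25 between the growing and the deep sko means. That value is a description over genes of unlike length and is no test.

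**Figure D2:**
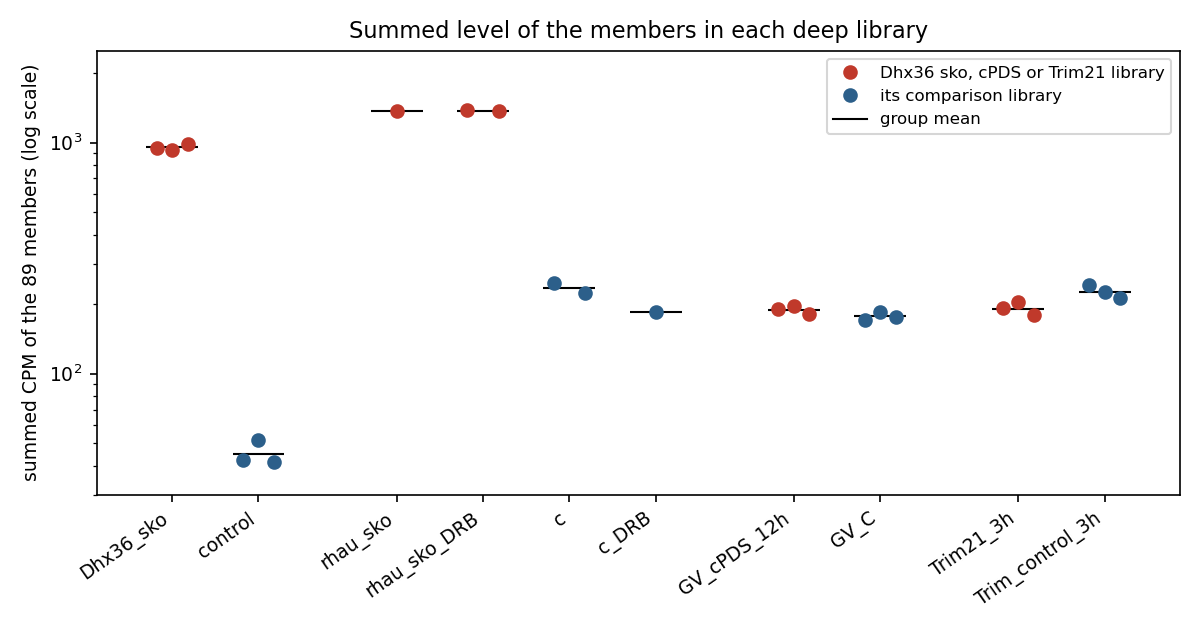
Summed CPM of the 89 members in each deep library by group (log scale), with a bar at each group's mean. The Dhx36_sko libraries lie between 928 and 989 CPM and the deep rhau_sko libraries between 1369 and 1383 CPM, above their controls, while GV_cPDS_12h libraries (181 to 197 CPM) lie close to GV_C libraries (172 to 185 CPM) and Trim21_3h libraries (179 to 203 CPM) lie below Trim_control_3h libraries (213 to 242 CPM), a gap that is absent without Zfpm2 (176 to 191 CPM against 173 to 186 CPM).

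**Figure D3:**
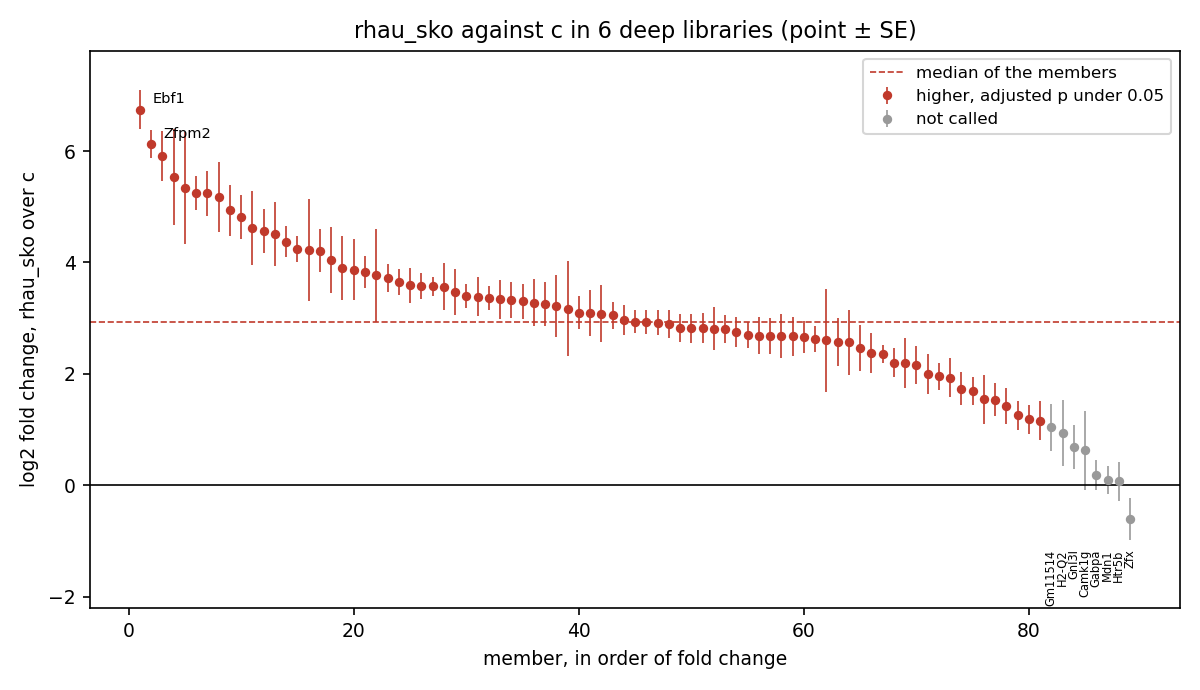
Log2 fold change of rhau_sko over c with its standard error for each of the 89 members, in order of size, in the 6 deep libraries of the second experiment. The 81 called members are all above 0, the dashed line marks the median of 2.94 over the 89, and Ebf1 and Zfpm2 stand at the upper end with 6.74 and 6.13.

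Genes known from immune and blood cells made up 14 members, and 13 of the 14 were higher in the deep sko libraries (median log2 fold change 3.31). Ebf1, the transcription factor that commits cells to the B lineage, was at 50.02, 27.2 and 33.9 CPM in Dhx36_sko growing oocytes, against 0.195, 0.125 and 0.250 CPM in control growing oocytes. The second experiment had it at 82.4, 80.1 and 42.3 CPM in the deep sko libraries, against 0.930, 1.12 and 0.271 CPM in the deep c libraries, a difference well beyond the spread of either group. For Ebf1 the log2 fold change was 6.74 ± 0.35 SE (edgeR adjusted p = 6.74e-07). This was the highest fold change of any member, and it was 7.83 without rhau_sko replicate 5.

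Fermt3, or kindlin-3, activates integrins of blood cells. It was at 19.1, 19.1 and 12.2 CPM in Dhx36_sko libraries, against 0, 0.0313 and 0 CPM in control libraries. The second experiment had it at 0.788, 3.43 and 13.2 CPM in deep sko libraries, against 0.0532, 0.0488 and 0.0602 CPM in deep c libraries. For Fermt3 the log2 fold change was 5.53 ± 0.86 SE (edgeR adjusted p = 6.23e-04). The deep groups did not overlap, but the sko libraries differed among themselves by 16.8 times, and the log2 fold change was 3.85 without c_DRB replicate 3, 7.07 without rhau_sko replicate 5 and 4.69 without rhau_sko_DRB replicate 8. Gbp9, of the interferon-induced guanylate-binding proteins, was at 19.1, 14.8 and 9.57 CPM in deep sko libraries, against 0.372, 0.220 and 0.602 CPM in deep c libraries. For Gbp9 the log2 fold change was 5.24 ± 0.40 SE (edgeR adjusted p = 6.44e-06); its reads may be shared with near copies such as Gbp8, also a member, and its value was 6.00 without c_DRB replicate 3 and 4.36 without rhau_sko replicate 5. Cd200r3, an activating receptor of mast cells and basophils, was at 54.2, 41.0 and 58.0 CPM in deep sko libraries, against 9.43, 6.88 and 5.69 CPM in deep c libraries. For Cd200r3 the log2 fold change was 2.94 ± 0.21 SE (edgeR adjusted p = 4.10e-06), and here the c libraries already held several CPM. Further members of this class that rose in the second experiment were Btla, Mgl2, Gbp8, Slfn8, Tnfsf10, Il24, Gpr77 and Peli2. H2-Q2, a class I histocompatibility gene with near copies, did not pass the test (0.94 ± 0.59 SE on the log2 scale, edgeR adjusted p = 0.24).

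Markers of immune cells themselves stayed low. The 10 listed markers in the table summed to 6.18 to 8.06 CPM in Dhx36_sko growing libraries, against 1.25 to 1.60 CPM in control libraries. In Dhx36_sko libraries 8 of 10 were under 1 CPM, with Emr1, the macrophage marker F4/80, at 0. Their sum in the second experiment was 6.01 to 9.13 CPM in deep sko libraries, against 3.27 to 4.10 CPM in deep c libraries. The pan-leukocyte gene Ptprc was at 1.31, 1.04 and 2.47 CPM in Dhx36_sko libraries, against 0, 0 and 0 in control libraries. It was low but above 0 in each Dhx36_sko library, and the part of such cells in the members' levels was not tested. In libraries of bulk RNA, fewer cells of a type and less RNA per cell cannot be told apart.

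Genes known from skin and other barrier epithelia made up 6 members, and 6 of the 6 were higher in the second experiment (median log2 fold change 2.99). Krt71, a keratin of the inner root sheath of the hair follicle, had the highest CPM of the members in growing oocytes, not adjusted for length, at 60.4, 51.0 and 56.9 CPM in Dhx36_sko libraries, against 0.828, 1.38 and 0.624 CPM in control libraries. In the second experiment it was at 20.2, 14.7 and 15.6 CPM in deep sko libraries, against 1.33, 1.71 and 1.48 CPM in deep c libraries, again without overlap but lower than in the growing oocytes. For Krt71 the log2 fold change was 3.57 ± 0.23 SE (edgeR adjusted p = 2.51e-06). Mt4, a metallothionein of stratified squamous epithelia, moved the other way between experiments, at 6.19, 9.73 and 11.3 CPM in growing Dhx36_sko libraries, against 0.316, 0.626 and 0.531 CPM in control libraries. Its deep sko libraries stood at 47.6, 61.1 and 48.8 CPM, against 8.19, 10.3 and 11.1 CPM in deep c libraries. For Mt4 the log2 fold change was 2.36 ± 0.16 SE (edgeR adjusted p = 3.28e-06). Edar, the ectodysplasin receptor of hair and tooth buds, was at 32.9, 39.9 and 20.7 CPM in deep sko libraries, against 3.56, 4.52 and 5.12 CPM in deep c libraries. For Edar the log2 fold change was 2.82 ± 0.26 SE (edgeR adjusted p = 2.10e-05). Of the keratins of the basal and first suprabasal layers of skin, Krt5, Krt14 and Krt1 were at 0 in each growing and each deep library of both genotypes. Krt10 was present, at 8.56, 10.5 and 8.65 CPM in Dhx36_sko libraries, against 9.49, 10.3 and 13.1 CPM in control libraries. Trp63, also on the skin list, was higher, at 22.7, 21.8 and 26.4 CPM, against 7.89, 9.74 and 9.43 CPM. In the second experiment 4 markers of this list were tested, and 3 were higher and 1 lower at an edgeR adjusted p under 0.05. The 7 skin and hair markers, of which Krt71 is one, summed to 137 to 144 CPM in Dhx36_sko libraries, against 22.0 to 28.3 CPM in control libraries. Krt25, a further inner root sheath keratin, was at 45.6, 58.5 and 52.4 CPM in Dhx36_sko libraries, against 3.75, 5.73 and 5.18 CPM in control libraries.

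Genes known from the nervous system made up 7 members, and 5 of the 7 were higher in the second experiment (median log2 fold change 2.81). Ntf3 encodes neurotrophin-3 and was at 9.07, 12.2 and 12.3 CPM in Dhx36_sko libraries, against 0.243, 0.188 and 0.468 CPM in control libraries. It was at 16.4, 20.5 and 16.6 CPM in deep sko libraries, against 1.54, 0.976 and 1.42 CPM in deep c libraries, with a gap many times the spread. For Ntf3 the log2 fold change was 3.72 ± 0.25 SE (edgeR adjusted p = 3.30e-06). Olfr1340, an olfactory receptor, was at 8.74, 10.2 and 17.5 CPM in deep sko libraries, against 0.744, 0.903 and 1.02 CPM in deep c libraries. For Olfr1340 the log2 fold change was 3.59 ± 0.31 SE (edgeR adjusted p = 1.37e-05). Sv2c, a glycoprotein of synaptic vesicles, was at 23.1, 20.3 and 22.1 CPM in deep sko libraries, against 1.78, 2.03 and 4.31 CPM in deep c libraries. For Sv2c the log2 fold change was 2.97 ± 0.27 SE (edgeR adjusted p = 2.07e-05), and it was 3.59 without c_DRB replicate 3 and 2.34 without rhau_sko replicate 5. The serotonin receptor gene Htr5b did not follow. It was at 9.95, 10.1 and 12.7 CPM in growing Dhx36_sko libraries, against 0.949, 1.19 and 0.562 CPM in control libraries. Its deep sko libraries were at 6.43, 1.83 and 3.64 CPM, against 4.49, 3.71 and 4.10 CPM in deep c libraries, where the groups overlapped. For Htr5b the log2 fold change was 0.07 ± 0.35 SE (edgeR adjusted p = 0.886). The 7 neuronal markers in the table summed to 188 to 195 CPM in Dhx36_sko libraries, against 117 to 133 CPM in control libraries, with Slc17a7 and Nefl at 0 in Dhx36_sko libraries. The rise was that of Syt1, at 146, 141 and 144 CPM, against 70.0, 64.5 and 57.4 CPM. Tubb3, also abundant, was not higher, at 45.1, 44.7 and 49.4 CPM, against 47.0, 68.3 and 66.2 CPM. In the second experiment the list summed to 113.9 to 127.9 CPM in deep sko libraries, against 91.6 to 113.8 CPM in deep c libraries.

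Genes of metabolic and transporting organs such as liver, kidney and intestine made up 11 members, and 11 of the 11 were higher in the second experiment (median log2 fold change 2.82). Rbp2, the retinol-binding protein of the small intestine, was at 11.6, 11.7 and 8.96 CPM in Dhx36_sko libraries, against 0.0487, 0 and 0 CPM in control libraries. Its deep values were 1.01, 5.48 and 13.6 CPM in deep sko libraries, against 0.159, 0.0488 and 0 CPM in deep c libraries. The groups did not overlap, but the sko libraries differed by 13.5 times. For Rbp2 the log2 fold change was 5.34 ± 1.01 SE (edgeR adjusted p = 0.00202). Without c_DRB replicate 3 the log2 fold change of Rbp2 was 3.25, without c replicate 1 it was 7.10, and without rhau_sko replicate 5 it was 11.28. Cbr3, a carbonyl reductase, was even across libraries, at 20.6, 15.0 and 17.5 CPM in deep sko libraries, against 1.25, 1.12 and 0.783 CPM in deep c libraries. For Cbr3 the log2 fold change was 4.24 ± 0.24 SE (edgeR adjusted p = 1.25e-06). Kcnj15, an inward rectifier potassium channel of kidney, was at 20.2, 21.2 and 22.8 CPM in deep sko libraries, against 4.31, 3.27 and 2.35 CPM in deep c libraries. For Kcnj15 the log2 fold change was 2.82 ± 0.25 SE (edgeR adjusted p = 1.67e-05). The class also holds Agtr1b, an angiotensin II receptor, Gls2, the liver-type glutaminase, and F5, coagulation factor V, with log2 fold changes of 3.77 ± 0.83 SE, 2.68 ± 0.34 SE and 2.57 ± 0.43 SE in the second experiment. The call of Agtr1b was lost without rhau_sko replicate 5 (3.83), and its value was 4.48 without c replicate 1 and 2.97 without rhau_sko_DRB replicate 8. The 5 liver markers, albumin among them, summed to at most 0.884 CPM in Dhx36_sko libraries and at most 0.718 CPM in control libraries. The 11 placenta and trophoblast markers, of which none is a member, summed to 184 to 285 CPM in Dhx36_sko libraries, against 8.46 to 9.67 CPM in control libraries. The same list summed to 43.8 to 69.2 CPM in deep sko libraries, against 16.5 to 18.3 CPM in deep c libraries. Most of this was Plac1, a placental gene also known from oocytes, at 273, 273 and 175 CPM in Dhx36_sko libraries, against 4.16, 2.60 and 3.90 CPM in control libraries, while 6 of the 11, Cdx2 and Hand1 among them, were at 0 in the Dhx36_sko libraries.

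Genes known from testis or epididymis, or of X-linked reproductive families, made up 6 members, and 6 of the 6 were higher in the second experiment (median log2 fold change 3.44). Ssx9, of the SSX family of cancer-testis genes, was at 14.6, 15.9 and 16.1 CPM in Dhx36_sko libraries, against 0.609, 1.06 and 1.03 CPM in control libraries. Its deep sko libraries were within a narrow range, 40.9, 40.3 and 43.9 CPM, against 2.92, 3.12 and 4.19 CPM in deep c libraries. For Ssx9 the log2 fold change was 3.57 ± 0.17 SE (edgeR adjusted p = 5.11e-07). Lyzl4, a lysozyme-like protein of sperm, was at 1.17, 4.87 and 14.2 CPM in deep sko libraries, against 0.106, 0.146 and 0.361 CPM in deep c libraries, separated but widely spread. For Lyzl4 the log2 fold change was 4.05 ± 0.59 SE (edgeR adjusted p = 4.26e-04), and it was 3.15 without c_DRB replicate 3, 4.75 without rhau_sko replicate 5 and 3.45 without rhau_sko_DRB replicate 8. Rhox10, a reproductive homeobox gene, was at 27.5, 23.9 and 19.8 CPM in deep sko libraries, against 10.9, 7.93 and 4.25 CPM in deep c libraries. For Rhox10 the log2 fold change was 1.96 ± 0.24 SE (edgeR adjusted p = 1.53e-04). Ssx9, Rhox10 and Usp17l5 belong to families with near-identical copies, so how the counting split their reads is uncertain. Of the 12 testis and spermatid markers, 6 were at 0 in the Dhx36_sko libraries, the transition proteins Tnp1 and Tnp2 among them, while the sum of the list was 83.9 to 100.4 CPM, against 24.6 to 27.8 CPM in control libraries. Most of this was 1 gene, Ldhc, at 81.4, 97.7 and 98.1 CPM, against 23.6, 20.8 and 24.3 CPM. In the second experiment the list was lower, at 54.1 to 56.9 CPM in deep sko libraries, against 64.7 to 72.3 CPM in deep c libraries. There 0 of the 5 markers tested were higher and 1 was lower at an edgeR adjusted p under 0.05.

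Nuclear and growth genes used by most cells made up 8 members, of which 4 were higher in the second experiment, with a median log2 fold change of 1.11. Gnl3l, a nucleolar GTPase, was at 11.3, 8.42 and 12.1 CPM in Dhx36_sko libraries, against 1.14, 0.658 and 1.16 CPM in control libraries. In the second experiment it was at 25.3, 40.9 and 24.8 CPM in deep sko libraries, against 34.0, 25.1 and 10.9 CPM in deep c libraries, where the groups overlapped. For Gnl3l the log2 fold change was 0.69 ± 0.39 SE (edgeR adjusted p = 0.187). Its value rested on single libraries, since without rhau_sko replicate 5 the log2 fold change was 1.63 and passed the test, and without c_DRB replicate 3 it was −0.23. Zfx, an X-linked zinc finger factor, was at 6.69, 9.87 and 3.53 CPM in deep sko libraries, against 15.4, 10.1 and 8.31 CPM in deep c libraries. For Zfx the log2 fold change was -0.61 ± 0.37 SE (edgeR adjusted p = 0.228), and without rhau_sko_DRB replicate 7 it was called lower at −1.04. The ribosome assembly ATPase Mdn1 (0.10 ± 0.26 SE, edgeR adjusted p = 0.798) and the ETS factor Gabpa (0.18 ± 0.27 SE, edgeR adjusted p = 0.627) were close to 0 on the log2 scale. The 4 that rose were Irf2bp2, a corepressor, at 2.92 ± 0.22 SE, Mta2, a subunit of the NuRD complex, at 2.19 ± 0.44 SE, Ttf1, a termination factor of RNA polymerase I, at 1.54 ± 0.29 SE, and Nle1, a ribosome assembly factor, at 1.54 ± 0.44 SE. The call of Nle1 was lost without c_DRB replicate 3 (0.81), and without rhau_sko replicate 5 its value was 2.26; Mta2 was at 1.21 and 3.20 without those libraries. The deep c median of these 8 genes was 5.72 CPM, against 0.761 CPM in control growing oocytes, so they were no longer silent there.

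A further 15 named members were placed in no tissue class, and 15 of the 15 were higher in the second experiment (median log2 fold change 3.08). Zfpm2, or FOG2, a cofactor of GATA factors, was at 17.7, 14.0 and 22.6 CPM in Dhx36_sko libraries, against 0.390, 0.877 and 0.4995 CPM in control libraries. It was at 93.5, 110.0 and 69.3 CPM in deep sko libraries, against 0.930, 1.71 and 1.33 CPM in deep c libraries, the highest CPM of any member in the sko libraries of that experiment, not adjusted for length. For Zfpm2 the log2 fold change was 6.13 ± 0.26 SE (edgeR adjusted p = 3.50e-07). Iqub, an IQ motif and ubiquitin domain protein, was at 19.4, 16.8 and 13.8 CPM in deep sko libraries, against 0.691, 0.317 and 0.0602 CPM in deep c libraries. For Iqub the log2 fold change was 5.91 ± 0.45 SE (edgeR adjusted p = 6.97e-06). Grb14, an adaptor that binds the insulin receptor, was at 22.2, 33.8 and 26.7 CPM in deep sko libraries, against 2.02, 0.732 and 0.783 CPM in deep c libraries. For Grb14 the log2 fold change was 4.57 ± 0.40 SE (edgeR adjusted p = 1.38e-05). Ormdl3, a regulator of sphingolipid synthesis, was at 23.2, 24.8 and 29.9 CPM in deep sko libraries, against 3.83, 3.42 and 3.07 CPM in deep c libraries. For Ormdl3 the log2 fold change was 2.93 ± 0.21 SE (edgeR adjusted p = 4.29e-06). In these genes each deep sko library stood above each deep c library by several times. Without rhau_sko replicate 5 the log2 fold change was 7.93 for Iqub and 5.30 for Grb14, and that of Iqub was 6.57 without c replicate 1 and 5.26 without c_DRB replicate 3. Cpne2, a copine, had 1 read in the 3 control growing libraries and was at 11.1, 12.9 and 9.16 CPM in Dhx36_sko libraries. Its deep sko libraries ranged widely, 4.00, 15.1 and 56.0 CPM, against 0.345, 0.415 and 0.663 CPM in deep c libraries. For Cpne2 the log2 fold change was 4.62 ± 0.66 SE (edgeR adjusted p = 3.81e-04), and it was 3.37 without c_DRB replicate 3, 5.79 without rhau_sko replicate 5 and 3.90 without rhau_sko_DRB replicate 8.

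Per length, the most abundant members in Dhx36_sko growing oocytes were Ndufa4l2 at 39.4 CPM per kb of exon, Ssx9 at 25.8, Krt71 at 25.7 and Mt4 at 23.2 CPM per kb. Ndufa4l2 encodes a relative of a NADH dehydrogenase subunit that is induced by hypoxia, and was at 38.2, 43.2 and 32.1 CPM in Dhx36_sko libraries, against 0.682, 0.470 and 0.874 CPM in control libraries. It was lower in the second experiment, at 6.21, 5.00 and 17.3 CPM in deep sko libraries, against 0.877, 1.27 and 0.874 CPM in deep c libraries, still without overlap. For Ndufa4l2 the log2 fold change was 3.08 ± 0.51 SE (edgeR adjusted p = 8.87e-04), and 3.71 on the log2 scale without rhau_sko replicate 5. Of the 22 members without a named function, 21 were higher in the second experiment (median log2 fold change 3.27), and Gm11514 missed the threshold (1.04 ± 0.42 SE, edgeR adjusted p = 0.0758).

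**Figure D4:**
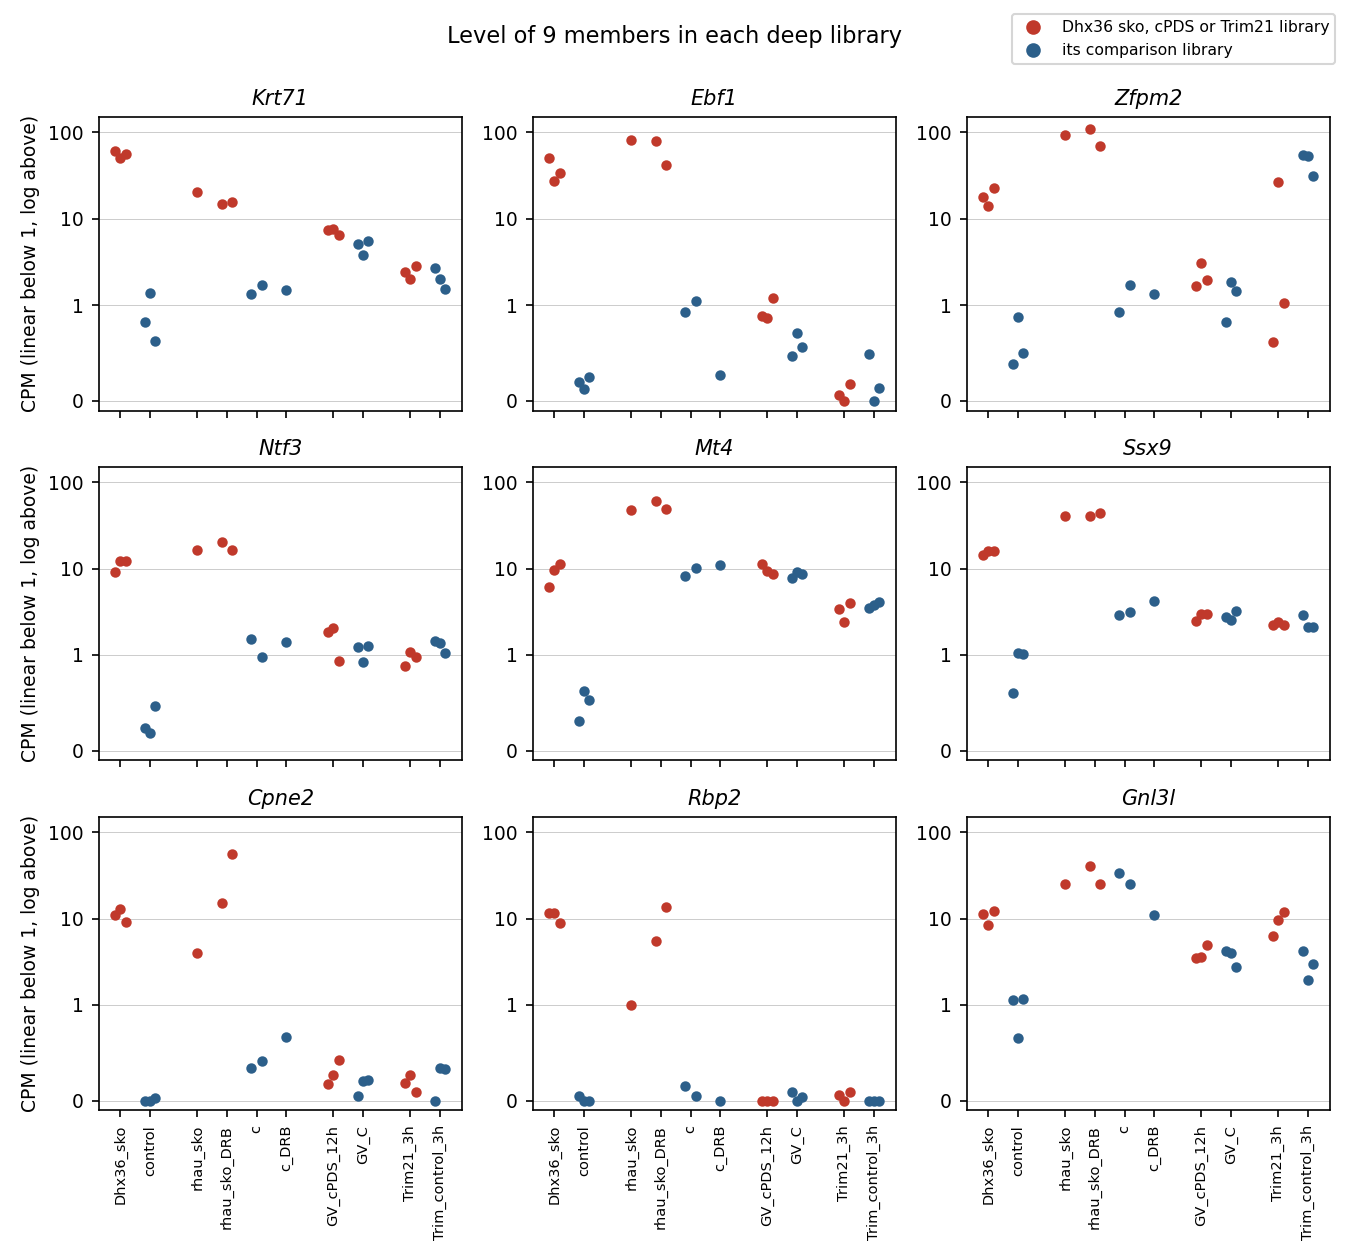
CPM of 9 members in each deep library (linear below 1 CPM, logarithmic above), with Dhx36-deficient, cPDS or Trim21 libraries left of their controls. Krt71, Ebf1, Zfpm2, Ntf3 and Ssx9 are apart between sko and control in both genetic experiments, Cpne2 and Rbp2 spread widely among the deep rhau_sko libraries, and Gnl3l overlaps between rhau_sko and c.

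Some members varied widely among the deep sko libraries. The ratio of the highest to the lowest of the 3 libraries had a median of 1.52 over the members, against 1.32 over the genes with a mean of at least 5 CPM there. Of the members, 11 (12.4%) differed by more than 4-fold, against 0.648% of the 9571 other such genes; they were Fermt1 at 17.5-fold, Fermt3, Cpne2, Rbp2, Lyzl4, Agtr1b, Slc17a3, Nle1, Usp17l5, Mta2 and H2-Q2. The members were not required to reach 5 CPM there, so a part of them is lower and noisier than the genes they are set beside. Of these 11, 9 were highest in rhau_sko_DRB replicate 8 and 7 were lowest in rhau_sko replicate 5, and 51.6% of the other genes over 4-fold were also highest in rhau_sko_DRB replicate 8. Fermt1, kindlin-1 of epithelia, for example was at 1.42, 7.43 and 24.9 CPM in the deep sko libraries, against 0.983, 0.928 and 0.633 CPM in deep c libraries, and passed the test only narrowly. For Fermt1 the log2 fold change was 2.60 ± 0.92 SE (edgeR adjusted p = 0.0457). Its call was lost with DESeq2, without c_DRB replicate 3 (0.56) and without rhau_sko_DRB replicate 7 (2.76), and its value was 4.71 without rhau_sko replicate 5 and 1.91 without rhau_sko_DRB replicate 8. Among markers of granulosa cells, the cells that surround the oocyte, the gap junction gene Gja1 was at 1.07, 7.39 and 44.3 CPM in deep sko libraries, against 3.91, 20.4 and 9.13 CPM in deep c libraries. Fst, or follistatin, was at 0, 0.695 and 3.68 CPM, against 1.22, 4.08 and 1.81 CPM. Both were chosen after their values were seen, because their order in the sko libraries was that of most of those members. Other markers of the list did not have that order, such as Nr5a2, a nuclear receptor, at 43.6, 33.4 and 32.0 CPM in deep sko libraries, against 23.4, 20.4 and 21.5 CPM in deep c libraries, and the aromatase gene Cyp19a1, at 65.2, 51.9 and 65.5 CPM, against 29.7, 41.6 and 32.9 CPM. Of the 10 granulosa markers that could be tested, 5 were higher and 0 lower in the deep sko libraries at an edgeR adjusted p under 0.05. Fshr, the receptor of follicle-stimulating hormone, which met the limits of the rule but was left out by name, was at 37.5, 40.1 and 41.1 CPM in Dhx36_sko libraries, against 0.390, 0.282 and 0.281 CPM in control libraries. The 17 granulosa and cumulus markers together summed to 330 to 391 CPM in deep sko libraries, against 237 to 275 CPM in deep c libraries, with Amh and Ptx3 at 0 in the sko libraries. In growing oocytes they summed to 193 to 217 CPM in Dhx36_sko libraries, against 119 to 196 CPM in control libraries. Bmpr1b made up most of these sums, at 107, 123 and 124 CPM in Dhx36_sko libraries, against 91.1, 123 and 168 CPM in control libraries. Cyp19a1 was higher there, at 20.4, 22.2 and 21.7 CPM, against 10.2, 8.11 and 7.62 CPM. Kitl (14.9, 14.0 and 14.0 CPM, against 6.77, 6.45 and 9.15 CPM) was also higher. So was Nr5a2 (9.90, 9.89 and 8.08 CPM, against 5.38, 5.26 and 5.34 CPM). Inha was not, at 0.656, 1.04 and 1.30 CPM, against 1.12, 1.38 and 1.65 CPM. Of the 17, 11 were under 1 CPM in Dhx36_sko libraries, with Ptx3 and Tnfaip6 at 0. Their part in the members' levels was not tested.

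No member passed the test for an effect of DRB. With genotype as a term in the same 6 libraries, 0 members were higher and 0 lower at an edgeR adjusted p under 0.05, and over all genes 0.00628% were called in each direction. At an unadjusted p under 0.05, 4 members were higher and 9 lower, beside 13% of all genes in either direction, and DESeq2 called 0 higher and 3 lower. The median log2 fold change of the members was −0.16. Usp17l5, a deubiquitinase of a repeated family, had the lowest fold change. For Usp17l5 the log2 fold change was -1.81 ± 0.26 SE (edgeR adjusted p = 0.059). Its level was 5.82 and 6.95 CPM in the rhau_sko_DRB libraries, against 26.1 CPM in rhau_sko replicate 5. It was called lower with DESeq2 (−1.83), with no filter on low counts (−1.81) and without c replicate 2 (−1.86). The DRB term shares its libraries with the genotype term, and 3 libraries stand on each side of it.

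Germinal vesicle control oocytes held low levels of many members. In GV_C libraries the median member was at 1.45 CPM, 32 members were under 1 CPM and 5 reached 5 CPM. High levels per length were found for Mt4 at 21.9 CPM per kb, Actg2, the smooth muscle gamma actin, at 5.94, Ssx9 at 4.69 and Rhox10 at 3.81 CPM per kb. In CPM, Mt4 was at 11.4, 9.39 and 8.56 in GV_cPDS_12h libraries, against 7.87, 9.16 and 8.64 in GV_C libraries, with overlapping groups, close to the 8.19 to 11.1 CPM of the deep c libraries and above the growing controls. Ebf1 and Zfpm2, which were high in sko oocytes, were at 0.474, 0.710 and 0.565 CPM and at 0.825, 1.83 and 1.45 CPM in GV_C libraries.

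The RNA G-quadruplex ligand cPDS left the sum of the members near that of its controls, 190.5, 197 and 181 CPM in GV_cPDS_12h libraries, against 172, 185 and 177 CPM in GV_C libraries. Of the 85 members tested (Agtr1b, Trim29, Rbp2 and Fermt3 had too few reads), 11 were higher and 8 lower at an edgeR adjusted p under 0.05, which is 12.9% and 9.41% of those tested. At an unadjusted p under 0.05, 14 were higher and 9 lower, beside 56.1% of all genes in either direction. Over the 16115 genes tested, 23.4% were higher and 27.4% lower. The shares of the members lay below this background in both directions, which was not tested further. The members were not matched to these genes by level, and the median member was at 1.45 CPM in GV_C libraries. Groups did not overlap for 13 members that were higher and 11 that were lower, beside 25.6% and 31.8% of all genes. The median log2 fold change was 0.14, against 0.01 over all genes. Without GV_C replicate 1 the count of higher members was 7, and without GV_cPDS_12h replicate 2 it was 6.

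Of the 13 immune and blood genes tested, 5 were higher and 0 lower, beside the 23.4% of all genes that were higher. Cd200r3 was at 8.14, 9.09 and 8.33 CPM in GV_cPDS_12h libraries, against 4.71, 6.00 and 5.90 CPM in GV_C libraries, without overlap. For Cd200r3 the log2 fold change was 0.65 ± 0.14 SE (edgeR adjusted p = 9.66e-04). Slfn8, of the Schlafen family, was at 0.916, 1.36 and 0.657 CPM in GV_cPDS_12h libraries, against 0.0917, 0.101 and 0.530 CPM in GV_C libraries, both near or under 1 CPM. For Slfn8 the log2 fold change was 2.04 ± 0.59 SE (edgeR adjusted p = 0.00955), and 3.31 on the log2 scale without GV_C replicate 3. In the GV_C libraries other than replicate 3, Slfn8 had fewer counts than the minimum of the filter on low counts. It passed this filter mainly through the GV_cPDS_12h libraries, where it is high, and so adds no support. Slfn8 is counted in the 5 higher immune and blood genes. Gpr77, a receptor of complement C5a, was at 2.29, 3.09 and 2.32 CPM in GV_cPDS_12h libraries, against 1.67, 1.40 and 1.38 CPM in GV_C libraries. For Gpr77 the log2 fold change was 0.81 ± 0.22 SE (edgeR adjusted p = 0.00674). The other immune genes were Il24, whose call was lost in 3 of the 6 fits with 1 library left out (log2 fold changes of 0.37 to 1.02), and Btla, whose call was lost in 4 of the 6 (0.49 to 0.98). Krt71 was also higher, at 7.43, 7.58 and 6.51 CPM in GV_cPDS_12h libraries, against 5.07, 3.79 and 5.46 CPM in GV_C libraries, a 1.53-fold difference where the deep sko libraries had an 11.9-fold one in the second experiment. For Krt71 the log2 fold change was 0.62 ± 0.16 SE (edgeR adjusted p = 0.00413). 

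Among the 8 lower members, Mta2 was at 0.102, 0.0754 and 0.125 CPM in GV_cPDS_12h libraries, against 1.22, 0.811 and 0.618 CPM in GV_C libraries. For Mta2 the log2 fold change was -3.01 ± 0.50 SE (edgeR adjusted p = 1.16e-04). Pdlim4, a PDZ and LIM domain protein, was at 0.153, 0.0754 and 0.125 CPM in GV_cPDS_12h libraries, against 0.443, 0.761 and 0.724 CPM in GV_C libraries. For Pdlim4 the log2 fold change was -2.34 ± 0.51 SE (edgeR adjusted p = 0.00121). Both were under 2 CPM in each library. In each GV_cPDS_12h library Mta2 and Pdlim4 had fewer counts than the minimum of the filter on low counts. They passed this filter through the GV_C libraries, where they are high, and so add no support. Both are counted in the 8 lower members. Htr5b was at 1.40, 0.943 and 0.861 CPM in GV_cPDS_12h libraries, against 3.29, 2.72 and 2.93 CPM in GV_C libraries. For Htr5b the log2 fold change was -1.45 ± 0.24 SE (edgeR adjusted p = 1e-04). Atg16l2, a relative of an autophagy factor, was at 2.67, 2.87 and 1.75 CPM in GV_cPDS_12h libraries, against 4.68, 4.29 and 4.72 CPM in GV_C libraries. For Atg16l2 the log2 fold change was -0.90 ± 0.20 SE (edgeR adjusted p = 0.00119). For these genes the groups were apart, but in the second experiment Mta2, Pdlim4 and Atg16l2 had been higher in sko. Ebf1 and Zfpm2 did not pass the test, with log2 fold changes of 0.81 ± 0.34 SE and 0.73 ± 0.31 SE (edgeR adjusted p = 0.0579 and 0.0608). Zfpm2 passed it without GV_C replicate 2 (0.99) and without GV_cPDS_12h replicate 1 (0.91). Dhx36 itself was higher, at 31.2, 36.4 and 37.6 CPM in GV_cPDS_12h libraries, against 23.1, 20.8 and 21.2 CPM in GV_C libraries. For Dhx36 the log2 fold change was 0.73 ± 0.10 SE (edgeR adjusted p = 1.82e-05).

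**Figure D5:**
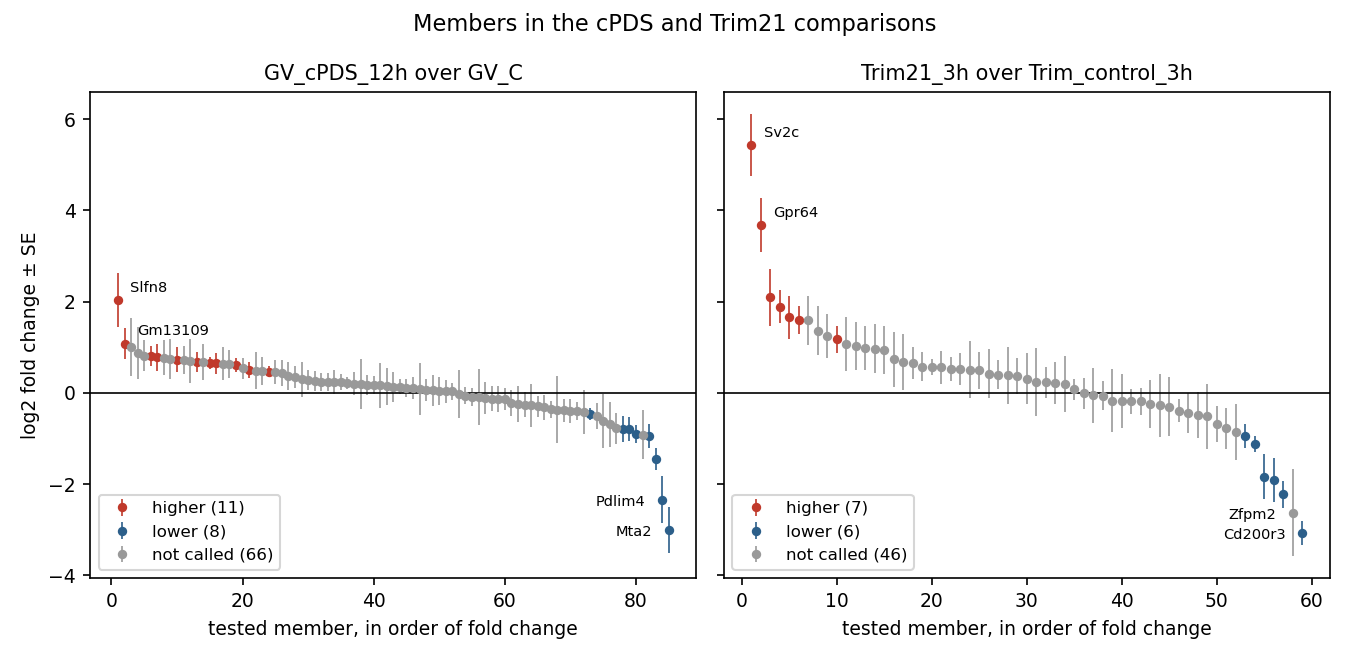
Log2 fold change with its standard error of each tested member in GV_cPDS_12h over GV_C (left, 85 members) and in Trim21_3h over Trim_control_3h (right, 59 members), in order of size. In both comparisons the called members lie on both sides of 0, 11 higher and 8 lower with cPDS and 7 higher and 6 lower with Trim21.

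The acute Trim21 experiment also gave calls in both directions. Dhx36 was at 6.08, 8.18 and 8.96 CPM in Trim21_3h libraries, against 29.9, 31.2 and 30.2 CPM in Trim_control_3h libraries. For Dhx36 the log2 fold change was -1.99 ± 0.18 SE (edgeR adjusted p = 1.43e-05). The summed level of the members was 192, 203 and 179 CPM in Trim21_3h libraries, against 242, 226 and 213 CPM in Trim_control_3h libraries. That difference came with 1 gene, Zfpm2, and without it the sums were 191, 176 and 178 CPM in Trim21_3h libraries, against 186, 173 and 182 CPM in Trim_control_3h libraries, which overlap. The median member was at 1.04, 1.07 and 1.02 CPM in Trim21_3h libraries, against 0.784, 0.588 and 0.865 CPM in Trim_control_3h libraries. Among the tested members 35 had a positive log2 fold change, with a median of 0.31, against −0.01 over all genes. Of the 59 members with enough reads to be tested, 7 were higher and 6 lower at an edgeR adjusted p under 0.05, which is 11.9% and 10.2% of those tested, beside 6.26% and 5.23% of the 14191 genes tested. At an unadjusted p under 0.05, 11 were higher and 7 lower, beside 24.7% of all genes in either direction. Groups did not overlap for 17 of the tested members that were higher and 7 that were lower, beside 15.2% and 14.8% of all genes. With 1 library left out, 4 members were higher in each case except without Trim_control_3h replicate 3, where 5 were, and 3 to 6 were lower, with the 3 found without Trim21_3h replicate 3.

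Sv2c was at 4.74, 1.61 and 3.28 CPM in Trim21_3h libraries, against 0.0980, 0.0980 and 0 CPM in Trim_control_3h libraries. For Sv2c the log2 fold change was 5.44 ± 0.67 SE (edgeR adjusted p = 2.35e-04). Gpr64, an adhesion receptor of the epididymis, was at 1.53, 3.76 and 2.08 CPM in Trim21_3h libraries, against 0.196, 0.196 and 0.133 CPM in Trim_control_3h libraries. For Gpr64 the log2 fold change was 3.68 ± 0.58 SE (edgeR adjusted p = 0.00145). Sv2c and Gpr64 had fewer than 10 counts in each Trim_control_3h library. They passed the filter through the Trim21_3h libraries, where they are high, and so add no support. Both are counted in the 7 higher members. Both were near 0 in the Trim controls but well above it in GV_C libraries, where Sv2c was at 3.01, 2.81 and 2.67 CPM and Gpr64 at 1.44, 1.28 and 1.63 CPM, in a table counted separately. Gnl3l was at 6.36, 9.53 and 11.97 CPM in Trim21_3h libraries, against 4.16, 1.96 and 3.00 CPM in Trim_control_3h libraries. For Gnl3l the log2 fold change was 1.60 ± 0.31 SE (edgeR adjusted p = 0.0053). Kcnj15 was at 4.53, 3.49 and 2.70 CPM in Trim21_3h libraries, against 1.18, 0.735 and 0.999 CPM in Trim_control_3h libraries. For Kcnj15 the log2 fold change was 1.89 ± 0.37 SE (edgeR adjusted p = 0.00566), a call lost without Trim21_3h replicate 1 (1.63). Cd200r3 fell to 1.04, 1.61 and 1.51 CPM in Trim21_3h libraries, against 10.9, 12.6 and 9.92 CPM in Trim_control_3h libraries. For Cd200r3 the log2 fold change was -3.07 ± 0.26 SE (edgeR adjusted p = 1.19e-05). Tnfsf10, the death ligand TRAIL, was at 4.28, 2.95 and 1.95 CPM in Trim21_3h libraries, against 12.7, 18.6 and 12.5 CPM in Trim_control_3h libraries. For Tnfsf10 the log2 fold change was -2.23 ± 0.30 SE (edgeR adjusted p = 4.78e-04). Both immune genes had been higher in the deep sko libraries. Edar was at 12.4, 8.86 and 13.6 CPM in Trim21_3h libraries, against 26.6, 26.7 and 23.6 CPM in Trim_control_3h libraries. For Edar the log2 fold change was -1.12 ± 0.18 SE (edgeR adjusted p = 0.00157). Edar was the 1 skin gene of 5 tested that was lower, and Fermt1 the 1 that was higher, a call lost in each of the 6 fits with 1 library left out (log2 fold changes of 1.47 to 1.80). Of 8 immune and blood genes tested, 0 were higher and 3 lower. Peli2, a ubiquitin ligase of Toll-like receptor signalling, was at 0.612, 0.537 and 0.355 CPM in Trim21_3h libraries, against 2.25, 1.96 and 1.46 CPM in Trim_control_3h libraries. For Peli2 the log2 fold change was -1.91 ± 0.48 SE (edgeR adjusted p = 0.0224), a call lost without Trim_control_3h replicate 1 (−1.78), without Trim_control_3h replicate 2 (−1.87) and without Trim21_3h replicate 3 (−1.67). Zfpm2 was at 0.612, 27.0 and 1.06 CPM in Trim21_3h libraries, against 55.2, 52.8 and 31.3 CPM in Trim_control_3h libraries, with 1 Trim21 library near the controls. For Zfpm2 the log2 fold change was -2.62 ± 0.95 SE (edgeR adjusted p = 0.101). Without that library, Trim21_3h replicate 2, it passed (−5.83).

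In the genome the members were spread out. They lay on 20 chromosomes, 6 of them on the X chromosome (6.74%, against 7.001% of all genes of the table), and chromosome 11 held the most, 10 (11.2%, against 8.12%). Gbp8 lay within 100000 bases of Gbp9, and Nle1 within that distance of Slfn8; no other members were such neighbours. Their summed exon length had a median of 2830 bases, against 1728 bases over all genes and 3665 bases over genes with a Dhx36_sko mean of at least 5 CPM.

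Exon bases were shared with another gene by 18 members (20.2%, against 19.6% of all genes), and for 15 of them a partner lay on the other strand. The strand setting of the counting is not given in the sources used here, so reads of such pairs cannot be told apart. Ndufa4l2 (build mm9, chromosome 10, 126951995 to 126954208) overlaps Shmt2, a serine hydroxymethyltransferase, which had a mean of 73.7 CPM in Dhx36_sko libraries, against 36.3 CPM in control libraries. Fermt3 overlaps Trpt1, at 1.58 CPM in Dhx36_sko libraries, against 3.28 CPM in control libraries, and Gls2 overlaps Spryd4, at 0.218 CPM, against 0.0684 CPM. Partners on the other strand were also higher in places. 2410002F23Rik, beside Acpt, was at 4.31 CPM in Dhx36_sko libraries, against 0.329 CPM in control libraries, a ratio of 13.1, and Fndc8, beside Nle1, was at 0.692 CPM, against 0.0475 CPM, a ratio of 14.6. Of the 19 partner pairs, 5 partners reached 5 CPM in each Dhx36_sko library, and they were Ccnc and Usp45 (both beside 2610029I01Rik), Eri2 (beside Acsm3), Shmt2 and the March gene beside Gm11638.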

How the data were processed

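RNA sequencing libraries of mouse oocytes were used as the read counts per gene that the authors deposited, 20 libraries of 33924 genes in one table and 6 Trim libraries of 37310 features in another. The submitters' processing notes name build mm9 and, among tools for the whole series, featureCounts 2.0.1, STAR 2.5.2b, HISAT2 2.1.0 and fastp 0.21.0. Which tool made which table, the strand setting and the treatment of shared reads were not given in the sources used here. Members were matched in the Trim table by identical exons (87) or symbol.

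CPM were computed on the summed counts of a library. Tests used edgeR 4.0.16 under R 4.3.3 (filterByExpr with a minimum count of 10, TMM factors, quasi-likelihood test) on all genes, adjusted by Benjamini-Hochberg, with a threshold of 0.05. The SE was taken as |log2 fold change| divided by √F, and can be too small where a group has few counts. The comparison of rhau_sko with c used the 6 deep libraries with DRB as a term. Intervals cover counting error only. Alternatives were DESeq2 1.42.0, library size alone, no filter, each library left out, other limits of the rule, all 8 libraries, libraries without DRB and a replicate block. Replicate pairs differed by more than sampling noise (lowest chi-square per degree of freedom 6.83).

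Members, role classes, marker lists, named genes and the choice of the 6 deep libraries were made with earlier results of these data known. Named genes were the 12 highest per kb in Dhx36_sko, the 8 with the largest called change in each direction in rhau_sko, the 5 highest per kb in GV_C, the 4 called with the smallest p in each direction elsewhere, the 3 on each side of each limit, and members in marker lists. Other genes named as examples of a role class were chosen after their values were seen. A few genes met by these rules are not reported here. Samples of other assays were not analysed here.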

Additional observations from a re-analysis of the deposited data

Results flagged for a closer look

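The shallow library labelled rhau_sko replicate 6, which entered none of the tests above, was looked at again because the members were high in it. Their summed level was 1000.6 CPM, from 128 counts of 127927 (95% Wilson interval 842 to 1189 CPM), and 38 of the 89 members had a read. In c_DRB replicate 4, as shallow, the sum was 201 CPM from 26 counts (137 to 295 CPM), and the deep c libraries lay between 185 and 248 CPM. The member sum of rhau_sko replicate 6 was thus above that of each c library, while its 6 counts of Dhx36 (46.9 CPM) went against its label. The intervals cover counting error only.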

How the results depend on the processing

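The number of members followed the limits of the rule, with 41 and 219 genes at control limits of 0.5 and 2 CPM and 189 and 23 genes at sko limits of 3 and 10 CPM, against 89. With TMM-scaled library sizes 73 genes met the rule, all of them members, 16 were lost and 0 were gained; with 1 library left out the number was 85 to 101. In rhau_sko against c the count of higher members was 75 to 82 over all alternatives, and that of lower members 0 to 1 with 1 library left out. For DRB, no filter on low counts gave 6 higher and 6 lower members, DESeq2 gave 3 lower, and leaving out 1 library gave 0 to 1 lower. With 1 library left out, 6 to 13 members were higher with cPDS, and 4 to 5 were higher and 3 to 6 lower with Trim21. The labels number the replicates, but same-numbered libraries did not deviate together (correlations −0.05, −0.04 and −0.04 in the cPDS experiment, and 0.08, 0.08 and −0.04 in the Trim21 experiment). With a replicate block 12 members were higher and 8 lower with cPDS, and 6 and 6 with Trim21. The block made Zfpm2 pass the test with cPDS (0.76) and with Trim21 (−3.74).

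In rhau_sko against c, changes of sign were found for Gabpa, Gnl3l, Mdn1 and Htr5b, none of which was called; uncalled members of the other comparisons were not followed one by one. With 1 library left out, the log2 fold change of Gabpa was −0.017 to 0.39, that of Gnl3l −0.23 to 1.63, that of Mdn1 −0.077 to 0.26 and that of Htr5b −0.53 to 0.64. In libraries without DRB it was −0.0072 for Gabpa, −0.22 for Gnl3l and −0.068 for Mdn1. The cause was not tested. Over the values of single genes under an alternative, 1285 kept direction and side of the threshold, 80 lost a call and 13 gained one. Counts were low, with the median member at about 1 CPM in c, GV_C and Trim control libraries, and 30 of the 89 could not be tested with Trim21.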
